A study of Mus musculus with 24 samples.

Results

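The 39 protein-coding Hox genes of the mouse were followed in peak lists from sorted intestinal lymphocytes. They were taken from 21631 protein-coding RefSeq genes by symbol, as Hoxa, Hoxb, Hoxc or Hoxd followed by a number. HoxA holds 11 of them (chr6:52155367-52260880), HoxB 10 (chr11:96194316-96368254), HoxC 9 (chr15:102921131-103036856) and HoxD 9 (chr2:74668225-74765142), all in mm10. A gene was counted as marked in a library when a peak overlapped a window of 1000 b on either side of its annotated start or end. The gene table gives no strand, so both ends were used, and a start inside a gene is missed. Any other peak inside a cluster was recorded as well.

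The libraries come from the mouse small intestine and were made by CUT&Tag, which uses an antibody to bring a transposase to its target in chromatin. KO cells carry Cxxc1flox/flox with a Cre, and WT cells carry Cxxc1flox/flox without Cre, so both genotypes share the floxed alleles. Group 3 innate lymphoid cells (ILC3s), tissue lymphocytes that make interleukin-22, were sorted into 3 subsets, the CCR6+, the NKp46+ and the DN cells. Each library was made from 100000 cells, and each group has 2 libraries. An antibody to CFP1 or to H3K4me3 was used, with 12 libraries each and 24 in all. Mice are labelled as 6 to 8 weeks old. The protocols also speak of young and of aged animals and of cell culture, so age and handling are not settled. In bulk libraries, fewer cells with a mark and less mark per cell cannot be told apart.

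Hox genes encode homeodomain transcription factors that set position along the body axis, and the order of genes in a cluster follows the order in which they are used from head to tail. Genes of the same number in different clusters are paralogs. Trimethylation of lysine 4 of histone H3 (H3K4me3) marks active gene starts. In embryonic stem cells many Hox gene starts carry H3K4me3 together with the Polycomb mark H3K27me3 and are held silent. CFP1, the product of Cxxc1, is a subunit of the SET1 complexes, which write H3K4me3, and recognises CpG that is not methylated. In blood cells, Hoxa9 and Hoxb4 act in stem and progenitor cells, and most Hox genes fall silent in mature lymphocytes.

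Hoxa4, marked at an end in all 12 libraries, has no RefSeq promoter entry. The sequences upstream of 4 of the Hox genes with an entry are printed. They set the most widely marked of the starts with an entry beside an unmarked one and beside Hoxa9, whose peak lies elsewhere in the gene. Each holds the 250 bases before the RefSeq start (GRCm38.p6), 5′ to 3′ on the gene's strand, and the capitals mark CpG, the motif CG, which reads the same on both strands. Hoxa3 (chr6:52213068-52213317, minus strand) has 18 CpGs and an H3K4me3 peak over these bases in 11 of 12 libraries. Hoxb4 (chr11:96318017-96318266, plus strand) has 14 CpGs and a peak in 10 libraries. Hoxd10 (chr2:74691641-74691890, plus strand) has 20 CpGs and a peak in 0 libraries. Hoxa9 (chr6:52227371-52227620, minus strand) has 3 CpGs and a peak in 0 libraries.
Hoxa3: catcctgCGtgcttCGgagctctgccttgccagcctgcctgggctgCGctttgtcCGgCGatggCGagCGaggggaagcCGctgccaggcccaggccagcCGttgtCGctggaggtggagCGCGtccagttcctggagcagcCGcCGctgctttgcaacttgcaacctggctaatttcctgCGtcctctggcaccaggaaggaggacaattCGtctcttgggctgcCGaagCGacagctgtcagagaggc
Hoxb4: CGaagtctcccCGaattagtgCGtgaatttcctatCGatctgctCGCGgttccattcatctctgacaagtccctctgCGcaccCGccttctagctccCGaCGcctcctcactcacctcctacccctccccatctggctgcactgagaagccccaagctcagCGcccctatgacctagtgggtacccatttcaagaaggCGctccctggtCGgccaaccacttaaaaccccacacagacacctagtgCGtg
Hoxd10: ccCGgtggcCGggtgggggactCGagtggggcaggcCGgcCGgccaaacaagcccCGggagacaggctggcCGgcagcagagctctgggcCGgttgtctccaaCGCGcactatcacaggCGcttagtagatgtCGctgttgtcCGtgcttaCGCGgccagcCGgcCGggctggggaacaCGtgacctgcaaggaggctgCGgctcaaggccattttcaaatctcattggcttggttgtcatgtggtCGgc
Hoxa9: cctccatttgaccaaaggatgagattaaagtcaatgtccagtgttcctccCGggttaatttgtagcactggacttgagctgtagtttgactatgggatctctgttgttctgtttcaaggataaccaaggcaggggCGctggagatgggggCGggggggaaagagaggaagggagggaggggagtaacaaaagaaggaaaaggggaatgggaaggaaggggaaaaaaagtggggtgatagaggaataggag

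RefSeq promoters were matched for 22 of the 39 genes, with 24 starts. The motif CG occurred at least once in 100% of these 24 upstream windows and in 93.6% of 21037 windows of 17268 protein-coding genes. The Hox windows held a median of 12.5 CpGs (2 to 35), against 10 (0 to 56) over all genes. The 4 Hox windows overlapped by H3K4me3 in some library, those of Hoxa3, Hoxb4, Hoxd9 and Hoxd1, held 13 to 24 CpGs, with a median of 16. The 20 windows with no overlapping peak held 2 to 35, with a median of 11, so the ranges overlapped. Hoxa13, with 35 CpGs, and Hoxd13, with 31, had the most and carried no peak over these bases in any library. At a gene end, however, Hoxa13 was marked in 1 library and Hoxd13 in 2. Split by marks at the gene ends, the 12 windows of genes marked in 0 libraries held a median of 9 CpGs (2 to 20). The 9 windows of genes marked in 1 to 5 libraries held 24 (3 to 35). The 3 windows of genes marked in 6 or more held 14 (7 to 18). None of these differences was tested.

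Across the 4 clusters H3K4me3 was sparse and sat at few genes. At the gene ends, 3 of the 39 genes (7.69%) were marked in all 12 H3K4me3 libraries, 15 (38.5%) in some and 21 (53.8%) in none. Among all 21631 genes, 42.8% were marked in all 12, 12.6% in some and 44.7% in none. The genes marked in all 12 were Hoxa3, which acts in the thymus and parathyroid in mice, Hoxa4 and Hoxb4. Counting peaks anywhere in the gene adds Hoxb3, which then holds H3K4me3 in all 12. The spans of Hoxb3 and Hoxb4 overlap, so the Hoxb4 peak is counted for both. A separate site inside Hoxb3 alone (chr11:96310831-96312121), away from all Hox gene ends, held H3K4me3 in 11 libraries, 5 KO and 6 WT. The span of Hoxa3 in the same way holds the peak near Hoxa4.

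**Figure D1:**
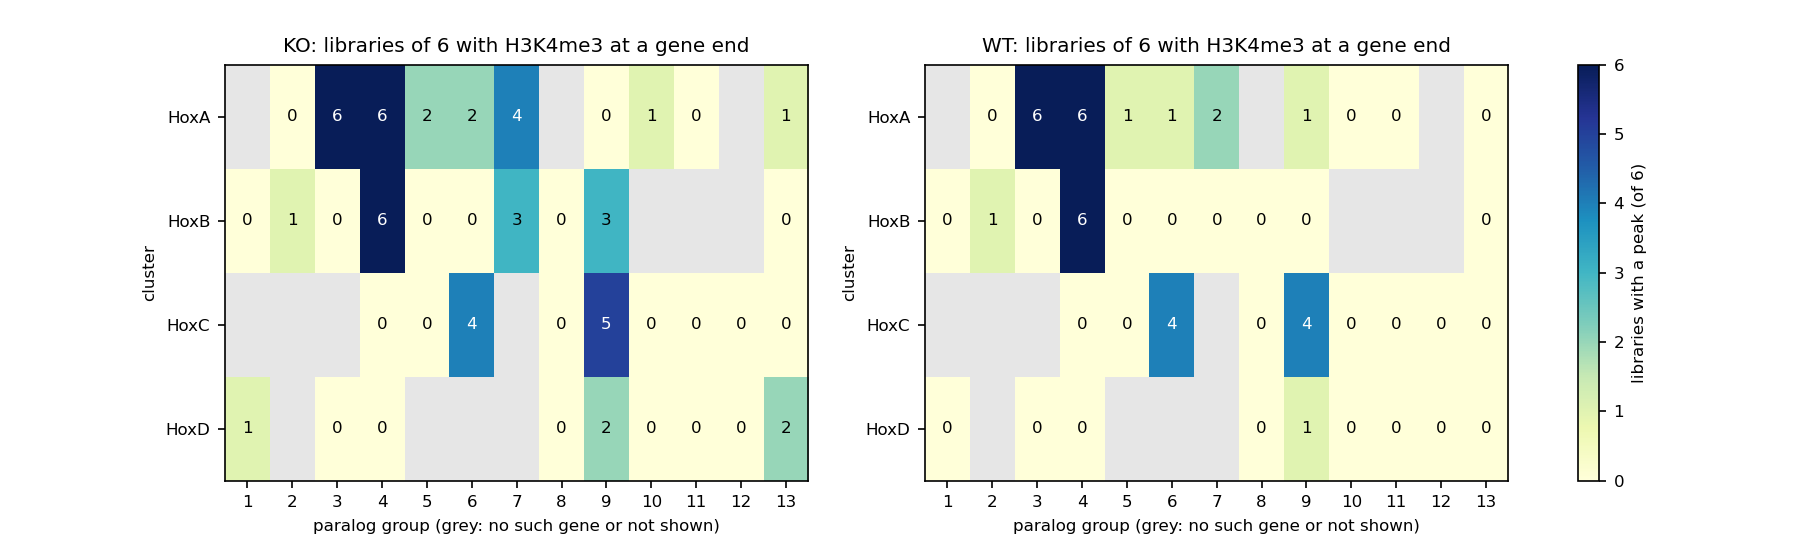
Hox clusters (vertical axis) by paralog group (horizontal axis, grey where no such gene exists or 1 gene is not shown), in a KO panel and a WT panel, with the number of libraries, out of 6, in which an H3K4me3 peak lies within 1000 b of a gene end. Hoxa3, Hoxa4 and Hoxb4 have a peak in 6 KO and 6 WT libraries, and 21 of the 39 genes have a peak in none.

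Of the 18 genes marked in at least 1 library, 9 lay in HoxA. There, 2 genes were marked in all libraries, 7 in some and 2 in none. HoxB had 1, 3 and 6 genes in these classes, HoxC 0, 2 and 7, and HoxD 0, 3 and 6. By place in the cluster, paralog groups 1 to 4 held all 3 genes marked everywhere, with 3 of their 12 genes marked in some libraries and 6 in none. Groups 5 to 8 held 5 genes marked in some libraries and 6 in none, and groups 9 to 13 held 7 and 9. Without a peak at an end were Hoxa2 and Hoxa11, then Hoxb1, Hoxb3, Hoxb5, Hoxb6, Hoxb8 and Hoxb13, then Hoxc4, Hoxc5, Hoxc8, Hoxc10, Hoxc11, Hoxc12 and Hoxc13, and Hoxd3, Hoxd4, Hoxd8, Hoxd10, Hoxd11 and Hoxd12. The nearest peak of Hoxa10, in 1 library, was 998 b from a gene end and just inside the window, while those of Hoxd3, at 1038 b, and Hoxb8, at 1120 b, were just outside.

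Merged over all lists, the peaks inside the clusters or within 1000 b of a Hox gene formed 25 sites of 25699 genome-wide, with 9 in HoxA, 7 in HoxB, 3 in HoxC and 6 in HoxD. Merging peaks into sites was chosen after the data were seen. Every one of the 25 had H3K4me3 in at least 1 library and 3 had it in all 12. Of the 25, 14 were found in more KO than WT libraries, 4 in fewer and 7 in equal numbers, and of all 22645 sites with H3K4me3 in some library, 6985 (30.8%), 3887 (17.2%) and 11773 (52.0%). Of the same 25, 9 were found in KO libraries only and 1, inside Hoxb3, in WT libraries only, and of all sites 4136 (18.3%) in KO libraries only and 1390 (6.14%) in WT libraries only. The sites genome-wide thus also lay more often in KO libraries, and the Hox shares were not tested against them. Since 7 sites were found in replicate 2 only and 1 in replicate 1 only, presence also moved with the replicate number. In every group the replicate 2 list covered more bases than the replicate 1 list. The replicate counts were not compared with those of all sites, so nothing particular to the Hox sites is read from them.

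**Figure D2:**
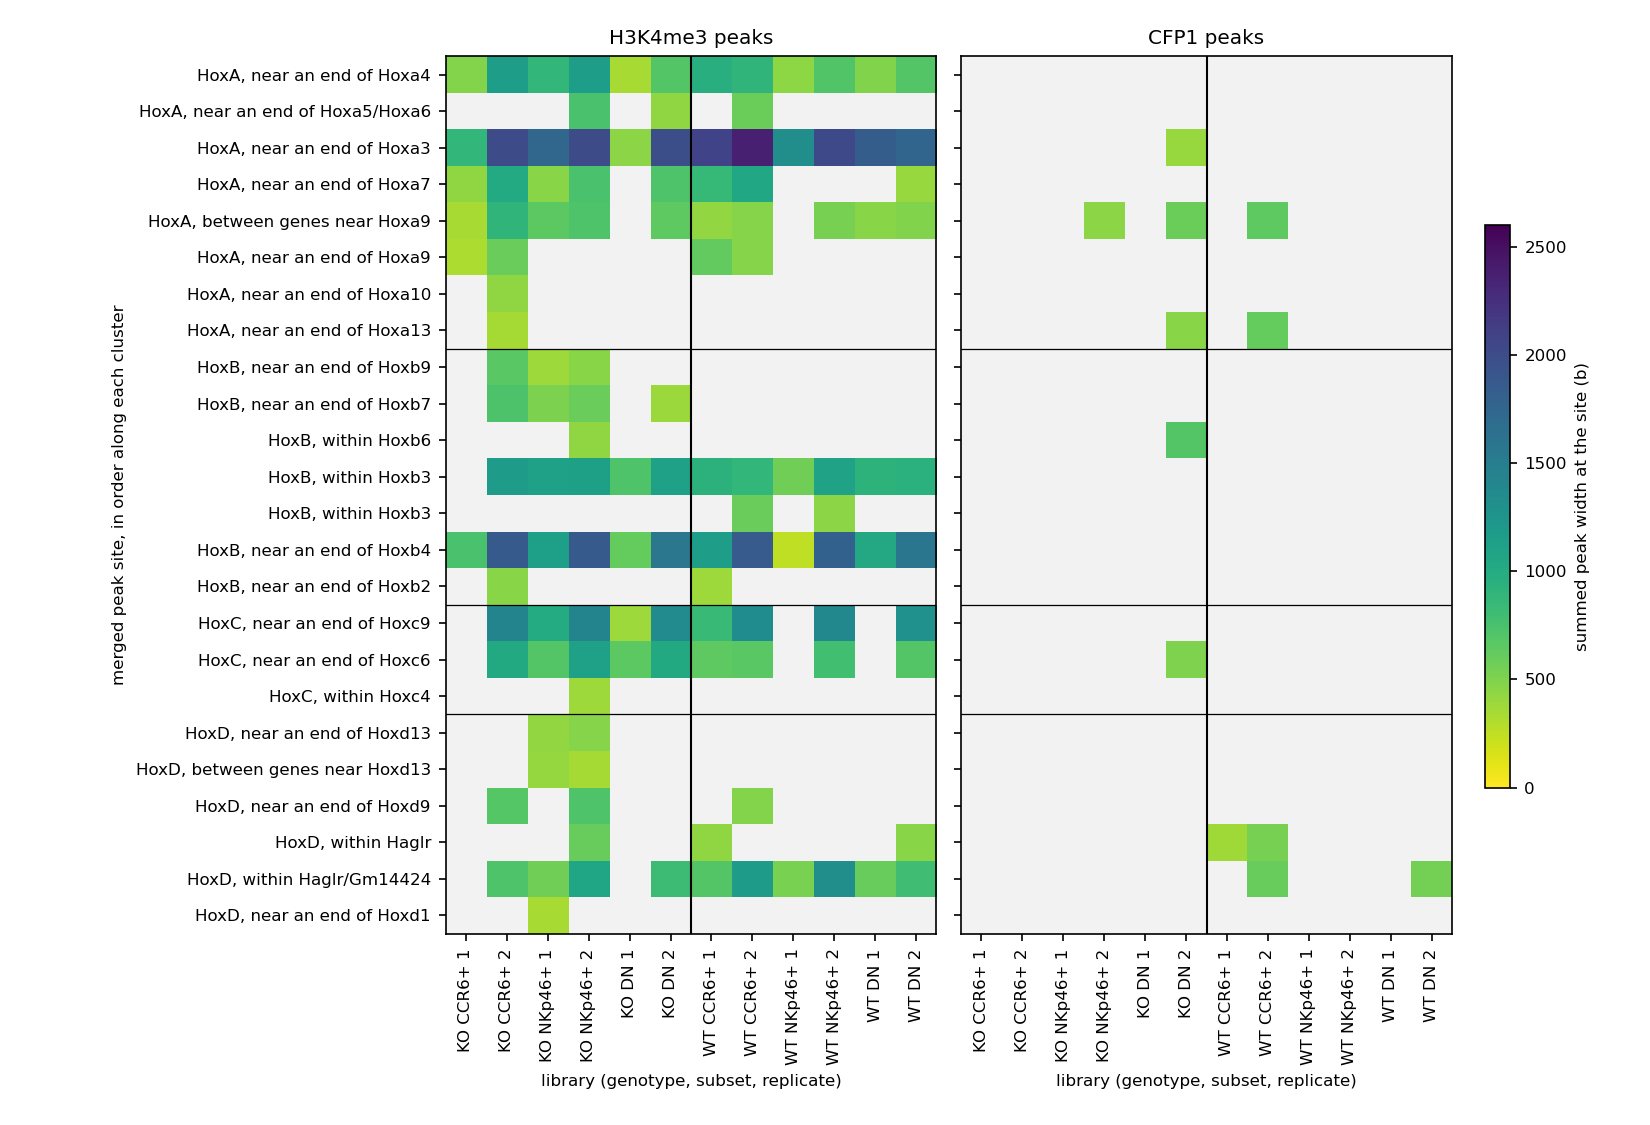
Of the 25 merged sites of the 4 clusters, 24 (vertical axis, in order along each cluster, labelled by the gene) against the 12 libraries of each antibody (horizontal axis, KO left of WT), in an H3K4me3 and a CFP1 panel, with the summed peak width in bases as colour and grey for no peak. In the H3K4me3 panel the 3 sites at Hoxa3, Hoxa4 and Hoxb4 are coloured in every library and the site at Hoxa9 in the 4 CCR6+ libraries, and the CFP1 panel is grey outside 7 sites.

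The strongest Hox peak was that near Hoxa4. Its fold enrichment, the authors' value within each list, had a median of 11.99 over the 12 libraries (6.23 to 14.1). Its median percentile among the peaks of the same list was 76.8 (25.4 to 90.8). The Hoxb4 site lay near the middle of its lists, with a median percentile of 49.1 (31.9 to 62.2), and Hoxa3, though the widest, lay lower at 23.1 (10.3 to 29.7). In HoxC, the Hoxc6 site had a median percentile of 31.5 (7.20 to 65.7) and Hoxc9 25.7. The Hoxa7 site was among the weakest peaks of its lists, at 2.95.

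**Figure D3:**
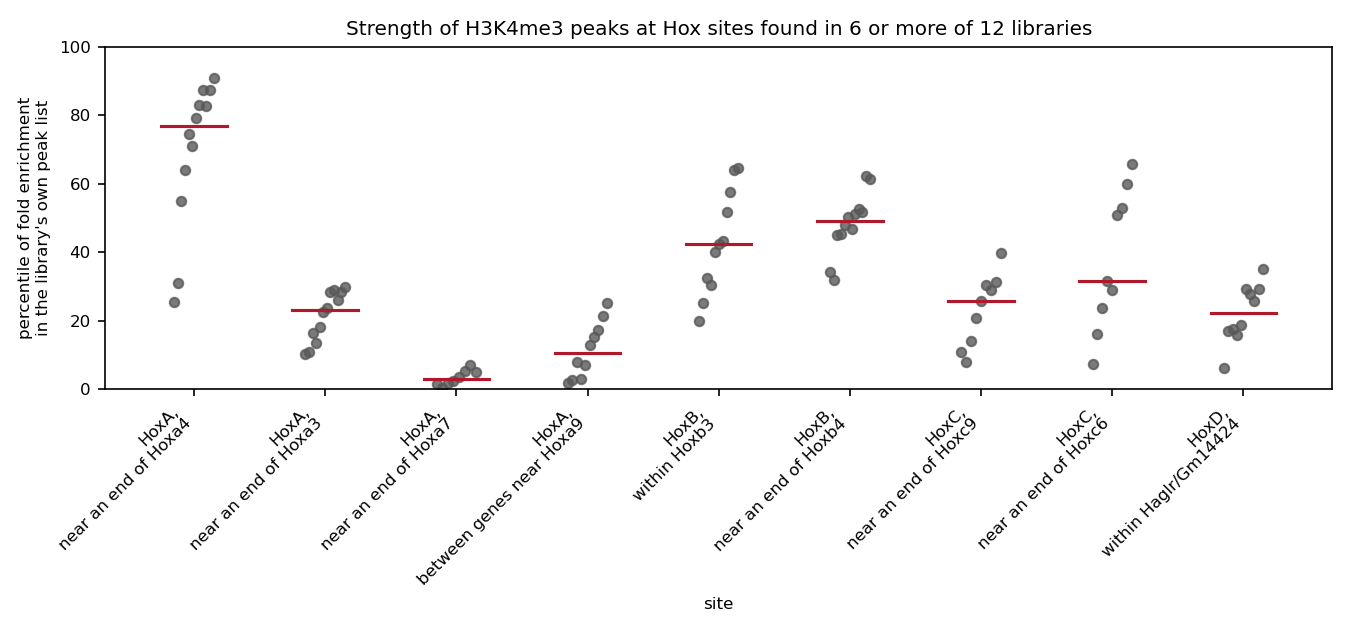
Percentile of a site's fold enrichment within the library's own H3K4me3 list (vertical axis) for 9 of the sites found in 6 or more of 12 libraries (horizontal axis), with 1 point per library and the median as a red line. The Hoxa4 site has the highest median, 76.8, and the Hoxa7 site lies at 2.95.

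The Hoxa3 site was broad, with a median width of 1904.5 b over the 12 libraries (455 to 2369 b). Its peaks averaged 1508 ± 673 b in KO and 1897 ± 355 b in WT libraries (SD, n = 6 each), and those at Hoxb4 averaged 1300 ± 550 b in KO and 1275 ± 602 b in WT. At Hoxa4 they averaged 778 ± 335 b in KO and 700 ± 208 b in WT. The differences at Hoxb4 and Hoxa4 were smaller than both SDs, and that at Hoxa3 was smaller than the KO SD and larger than the WT SD. None of these widths was tested.

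The comparison of KO with WT asks whether loss of CFP1 changes H3K4me3 at these genes. Per library, 3 and 13 Hox genes were marked in KO CCR6+ cells, 9 and 13 in KO NKp46+ cells and 5 and 8 in KO DN cells. In WT cells the CCR6+ counts were 8 and 10, the NKp46+ counts 3 and 5, and the DN counts 3 and 5. The KO mean was 8.5 ± 4.09 and the WT mean 5.67 ± 2.80 (SD, n = 6 each), so the groups overlapped and the difference was smaller than the KO SD. Within replicate 1 the means were 5.67 ± 3.06 in KO and 4.67 ± 2.89 in WT, and within replicate 2 they were 11.3 ± 2.89 in KO and 6.67 ± 2.89 in WT (SD, n = 3 each). Over all genes the share marked per library was 45.6% to 53.4% in KO and 45.4% to 49.8% in WT, so the higher KO count came with longer lists in some KO libraries. Whether list length accounts for the Hox counts was not tested.

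At the gene ends 12 Hox genes were marked in more KO than WT libraries, 1 (Hoxa9) in fewer and 26 in equal numbers, 21 of these being 0 in both. Over the whole gene, Hoxa9 had a peak in 2 KO and 2 WT libraries. Of the 1877 genes marked in 2 to 10 libraries, 1038 were marked in more KO libraries, 453 in fewer and 386 in equal numbers. Of the 11 Hox genes among them these counts were 9, 0 and 2, and the shares were not tested against each other. Hoxb7 and Hoxb9 were marked in 3 KO and 0 WT libraries. Hoxd13, a digit-patterning gene, was marked in 2 KO and 0 WT libraries, Hoxa7 in 4 and 2, Hoxc9 in 5 and 4, and Hoxc6 in 4 and 4. Hoxa5, Hoxa6 and Hoxd9 were each marked in 2 KO and 1 WT libraries, and Hoxa5 and Hoxa6 share a single site. Hoxa10, Hoxa13 and Hoxd1 were marked in 1 KO and 0 WT libraries, and Hoxb2 in 1 and 1. Peaks inside the gene but away from its ends gave Hoxb6 and Hoxc4 1 KO and 0 WT libraries each.

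Presence was tested for the 1877 genes marked in 2 to 10 of the 12 libraries, with Fisher's exact test, two-sided, and Benjamini-Hochberg adjustment. None passed an adjusted p of 0.05, the smallest being 0.769, and 35 (1.86%) had an unadjusted p under 0.05. Of the 11 Hox genes tested, 0 reached an unadjusted 0.05, and the smallest, for Hoxb7 and Hoxb9, was an exact p of 0.182. Hoxa3, Hoxa4 and Hoxb4, marked in all 12 libraries, could not differ in this test.

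Covered length, the bases of a gene and of the 1000 b on each side that lie in H3K4me3 peaks, keeps more of the lists. Hoxb7 had 0 and 0.727 kb in KO CCR6+, 0.512 and 0.594 kb in KO NKp46+ and 0 and 0.392 kb in KO DN libraries, against 0 kb in all 6 WT libraries. It was thus covered in 4 of 6 KO libraries and in 0 of 6 WT libraries, at 1 site (chr11:96286445-96287185). Per merged site its presence had an exact p of 0.0606, where 108 of 8306 sites (1.3%) were under 0.05, with a range of 0.0152 to 0.0606 when each library was left out in turn. The low end came without KO CCR6+ replicate 1 or without KO DN replicate 1, which lack the peak, and the other 10 gave 0.0606. At a fold enrichment of 5 or more the exact p was 0.455. Hoxb9 had 0 and 668 b in KO CCR6+, 377 and 459 b in KO NKp46+ and 0 b in both KO DN libraries, against 0 b in all WT libraries. The library labelled KO CCR6+ replicate 1 and that labelled KO DN replicate 1 lacked both.

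The genes marked in every library varied in width. Hoxa3 had 1355 and 3147 b in KO CCR6+, 2620 and 3889 b in KO NKp46+ and 792 and 3096 b in KO DN libraries, against 3035 and 3852 b in WT CCR6+, 1759 and 2733 b in WT NKp46+ and 2334 and 2450 b in WT DN libraries. The lowest value was that of KO DN replicate 1, and all WT values lay within the KO range. Hoxb4, a gene of haematopoietic stem cells, had 749 and 1867 b in KO CCR6+, 1129 and 1866 b in KO NKp46+ and 618 and 1571 b in KO DN libraries, against 1146 and 1849 b in WT CCR6+, 253 and 1794 b in WT NKp46+ and 1029 and 1577 b in WT DN libraries. In all 6 pairs of replicates Hoxb4 was wider in replicate 2. Hoxb3, whose span includes Hoxb4, had 749 to 3030 b in KO and 817 to 3350 b in WT libraries.

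Hoxc6 had 0 and 1025 b in KO CCR6+, 695 and 1108 b in KO NKp46+ and 653 and 1022 b in KO DN libraries, against 643 and 665 b in WT CCR6+, 0 and 786 b in WT NKp46+ and 0 and 700 b in WT DN libraries. Its 3 highest values were KO replicate 2 libraries and the ranges overlapped. Hoxd9 had 683 b in KO CCR6+ replicate 2, 715 b in KO NKp46+ replicate 2 and 478 b in WT CCR6+ replicate 2, and 0 b elsewhere. Hoxa5 had 751 b in KO NKp46+ replicate 2, 433 b in KO DN replicate 2 and 583 b in WT CCR6+ replicate 2. Hoxb2 had 460 b in KO CCR6+ replicate 2 and 384 b in WT CCR6+ replicate 1. Hoxa10 and Hoxa13 were covered in KO CCR6+ replicate 2 alone, at 430 and 142 b, Hoxd1 in KO NKp46+ replicate 1 alone, at 343 b, and Hoxb6 and Hoxc4 in KO NKp46+ replicate 2 alone, at 430 and 379 b. Apart from Hoxb2 in WT and Hoxd1, these single peaks lay in replicate 2.

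Hoxa7 had 427 and 1011 b in KO CCR6+, 458 and 748 b in KO NKp46+ and 0 and 715 b in KO DN libraries. In WT it had 856 and 1052 b in CCR6+, 0 b in both NKp46+ libraries and 0 and 406 b in DN. The 2 KO NKp46+ libraries were thus covered and the 2 WT ones were not, while the CCR6+ libraries were covered in both genotypes. The KO NKp46+ lists covered 15.6 and 20.4 Mb in all, and the WT ones 10.9 and 19.5 Mb. Other genes with this pattern were not counted, and a difference between genotypes within NKp46+ cells was not tested. Hoxa4 had 337 to 1139 b in KO libraries, a range that took in the 443 to 962 b of the WT libraries. Hoxc9 had 0 and 1424 b in KO CCR6+, 1002 and 1432 b in KO NKp46+ and 385 and 1345 b in KO DN, against 838 and 1333 b in WT CCR6+, 0 and 1391 b in WT NKp46+ and 0 and 1282 b in WT DN. Its 0 values all fell in replicate 1.

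**Figure D4:**
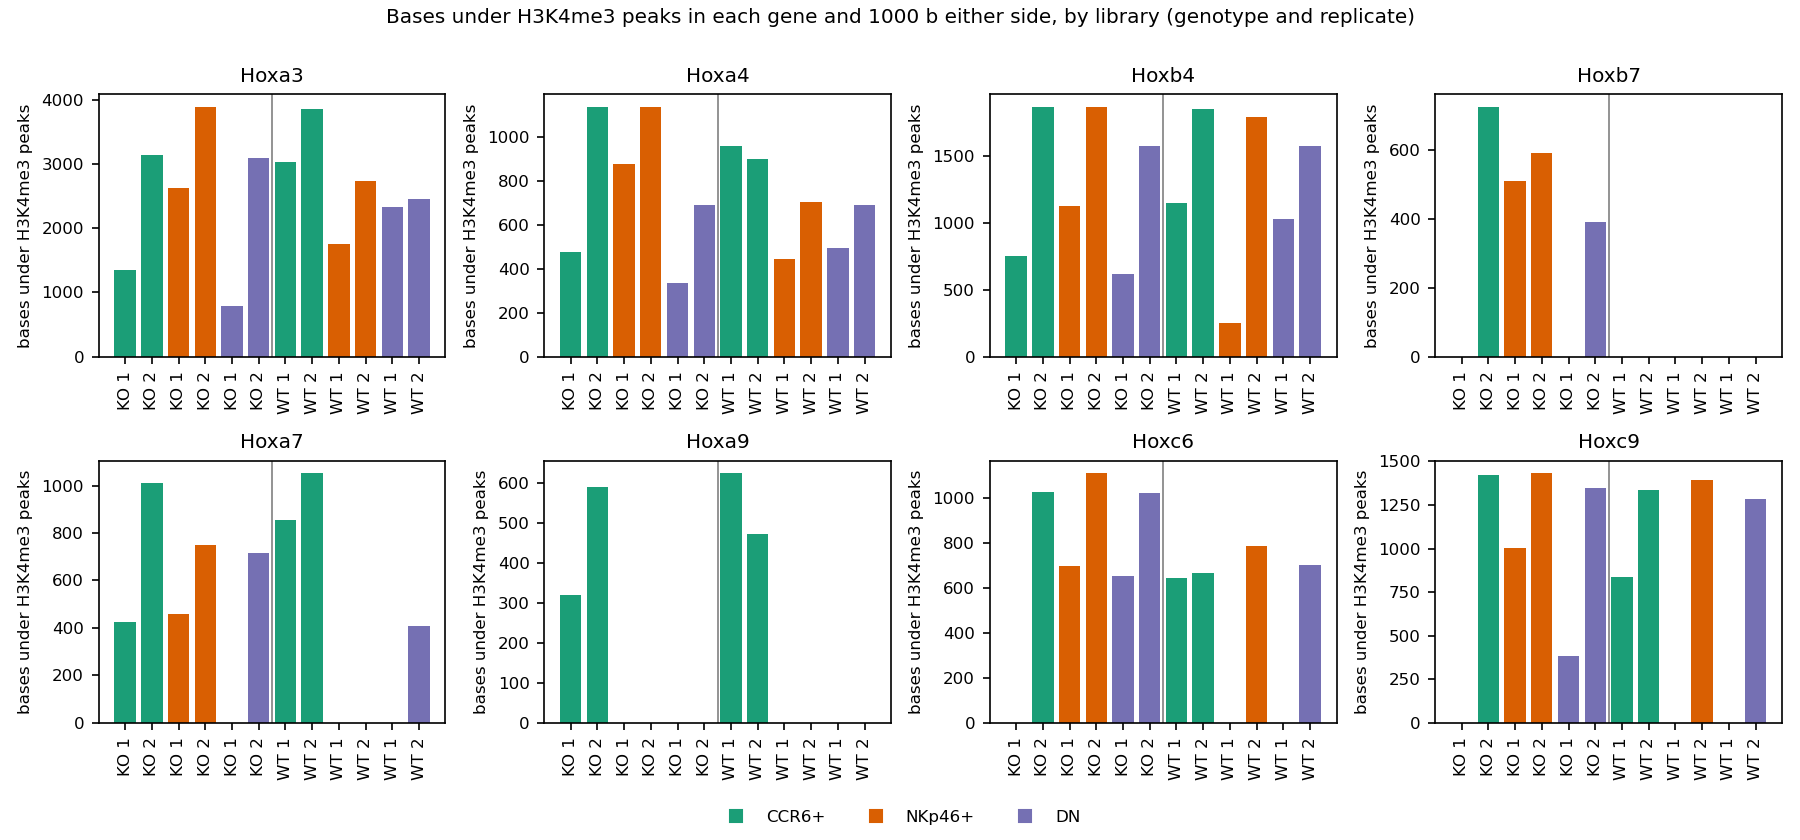
Covered length in bases (vertical axis) of 8 Hox genes in each H3K4me3 library (horizontal axis), KO left of WT, with 1 bar per library coloured by subset and no bar at 0. Hoxb7 has bars in 4 KO libraries and in 0 WT libraries, and Hoxa9 has bars in the 4 CCR6+ libraries only.

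Covered length was fitted with limma on the log2(bases + 100) scale for the 12393 genes covered in at least 4 libraries, 10 of them Hox genes. The fit called 9 genes (0.0726%), 1 higher and 8 lower in KO, at an adjusted p of 0.05, and 0 of the Hox genes. With the replicate numbers as a block it called 17 genes, again with 0 Hox genes. At an unadjusted p under 0.05 the fit without the block gave 463 genes (3.74%), of which 1, Hoxb7, is a Hox gene. With the block 1464 genes (11.8%) were under 0.05, 1 of them a Hox gene. The Hoxb7 log2 difference was 1.79 (SE 0.55), with an adjusted p of 0.713 from limma. Hoxb7 passed the filter only through 4 KO libraries, so it had to differ, and its value carries no more than the presence count above.

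The other 9 Hox genes fitted had log2 differences from −0.25 (SE 0.36) for Hoxa3 to 0.89 (SE 0.69) for Hoxa7. Hoxc6 had 0.75 (SE 0.86), Hoxc9 0.45 (SE 1.03), Hoxb4 0.11 (SE 0.46), Hoxa4 0.08 (SE 0.27) and Hoxb3 −0.12 (SE 0.43). No count of directions over the fitted Hox genes is given, since members such as Hoxb7 passed the filter through 1 genotype. Over all genes tested 33.9% were higher in KO, and 53.6% when the libraries were centred on genes covered in all of them, where 13 genes were called higher and 28 lower.

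The bases in H3K4me3 peaks summed over the 4 clusters averaged 10.4 ± 5.90 kb in KO and 9.01 ± 3.84 kb in WT libraries (SD, n = 6 each). KO libraries ran between 3.17 and 16.8 kb and WT libraries between 3.10 and 13.9 kb, so they overlapped. As a share of all bases covered in the list, the clusters took 5.90 ± 2.18 per 10000 in KO and 5.31 ± 1.69 per 10000 in WT. HoxA held 4478 ± 2381 b in KO and 4257 ± 1816 b in WT, and HoxB 2941 ± 1646 b in KO and 2402 ± 947 b in WT. HoxC held 1745 ± 1078 b in KO and 1273 ± 1013 b in WT, and HoxD 1194 ± 1214 b in KO and 1083 ± 435 b in WT. HoxC had 0 b in KO CCR6+ replicate 1, WT NKp46+ replicate 1 and WT DN replicate 1.

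**Figure D5:**
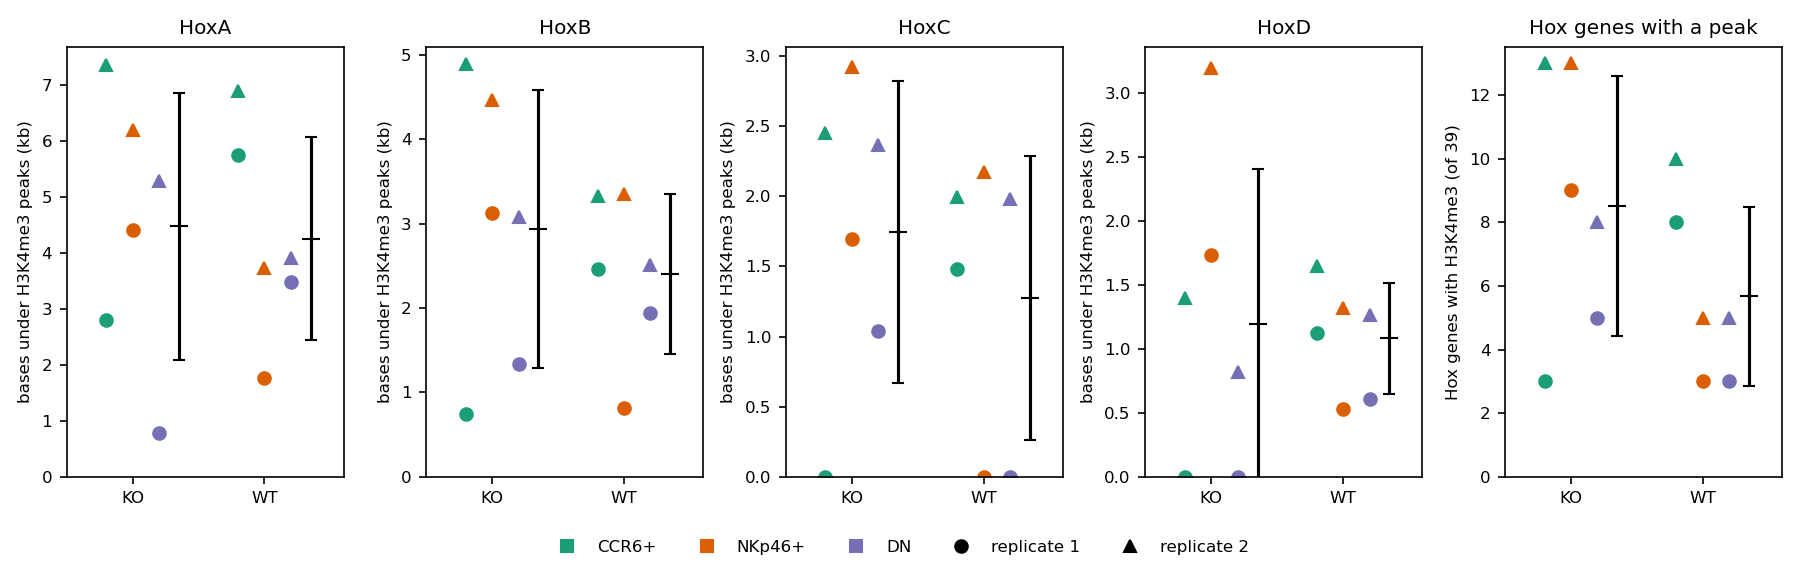
Bases in H3K4me3 peaks (vertical axis, kb) in KO and WT libraries (horizontal axis) for each Hox cluster, and in the last panel the number of Hox genes marked, of 39; points are libraries, colours subsets, circles replicate 1 and triangles replicate 2, and the bars give the mean ± SD of 6 libraries, cut at 0. The genotypes overlap in all panels, with 8.5 Hox genes per KO and 5.67 per WT library on average.

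The HoxD cluster held 1738 and 3202 b in KO NKp46+ and 527 and 1319 b in WT NKp46+ libraries. In CCR6+ cells it held 0 and 1402 b in KO and 1124 and 1651 b in WT, and in DN cells 0 and 819 b in KO and 609 and 1265 b in WT. A pair of HoxD sites, one at an end of Hoxd13 (chr2:74668395-74668882) and one just beyond it (chr2:74672764-74673176), were present in both KO NKp46+ libraries and in none of the other 10, as were 191 sites genome-wide (0.843% of those with H3K4me3). Their fold enrichments ran from 3.54 to 5.17.

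Among the subsets, Hoxa9, a gene of haematopoietic progenitors that is a frequent partner of Meis1 in leukaemia, was found in CCR6+ cells. It had 319 and 591 b in KO CCR6+ and 625 and 472 b in WT CCR6+ libraries, and 0 b in all 8 NKp46+ and DN libraries. The site (chr6:52225669-52226483) lies inside the gene, downstream of the start shown above. Its peaks had fold enrichments of 4.67 and 3.01 in KO and 3.44 and 2.95 in WT and percentiles of 1.97 to 10.2 in their lists, so they were weak. Genome-wide 6 sites showed a peak in 4 of 4 CCR6+ and 0 of 8 other libraries, and this is the only one in the Hox clusters.

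Tested per merged site, the Hoxa9 site gave a Fisher exact p of 0.00202 and an adjusted p of 1 over 8306 sites, of which 72 (0.867%) had an unadjusted p under 0.05. In limma, CCR6+ libraries had 2.56 (SE 0.14, log2) more covered length at Hoxa9 than the others, with an adjusted p of 7.74e-05, and 9 genes (0.0726%) were called in that comparison. The NKp46+ and DN comparisons, which called 5 (0.0403%) and 7 genes (0.0565%), gave Hoxa9 a log2 difference of −1.28 each, with adjusted p of 0.0267 and 0.0212, which mirror the CCR6+ difference. Hoxa9 passed the filter only through its 4 CCR6+ libraries and had to differ, so these values are no support beyond the presence in 4 of 4 and 0 of 8. The NKp46+ and DN calls were lost when any 1 library was left out, and the CCR6+ call when a CCR6+ library was. At a fold enrichment of 5 or more the site was in 0 libraries.

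Hoxa7, the neighbour of Hoxa9, was covered in 4 of 4 CCR6+ libraries, at 427 to 1052 b, and in 4 of 8 others. Its log2 difference between CCR6+ and the other subsets was 1.80 (SE 0.74), with an adjusted p of 1 in limma, and it was among 155 genes (1.25%) with an unadjusted p under 0.05. Per gene, presence tests of a subset against the others over 1877 genes gave unadjusted p under 0.05 for 18 genes (0.959%) when CCR6+ was set apart, 12 (0.639%) for NKp46+ and 14 (0.746%) for DN, with 0 adjusted and 0 Hox genes in each.

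Noncoding genes of the clusters were looked at after the data were seen. Haglr, a long noncoding RNA between Hoxd3 and Hoxd1, held H3K4me3 in 4 KO and 6 WT libraries. Its main site (chr2:74752724-74754090) has a median percentile of 22.2. Hotair, Hoxa11os and Hoxd3os1 held no peak in any library. The hairpins of Mir196b, Mir196a-1, Mir10a, Mir196a-2, Mir615 and Mir10b overlapped no peak, and within 1000 b Mir10a had H3K4me3 in 4 KO and 5 WT libraries.

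CFP1 was rarely called in the clusters. At the gene ends 3 Hox genes had a CFP1 peak in some library and 36 (92.3%) in none of 12, against 65.6% of all genes. These were Hoxa3 and Hoxc6, each in 1 KO and 0 WT libraries, and Hoxa13, a hindgut and digit gene, in 1 KO and 1 WT library. The 3 KO peaks all came from the library labelled KO DN replicate 2, whose CFP1 list holds 8881 peaks, the longest of the 12. Depth is unknown, so whether its label is right cannot be told from the length of the list. The other KO lists held 714 to 4891 peaks and the WT lists 4574 to 7983. Without that library, CFP1 was at 0 Hox gene ends in KO and at 1 in WT.

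Between the Hox genes, CFP1 was called at a site between Hoxa7 and Hoxa9 (chr6:52220954-52221856) in 2 KO libraries, NKp46+ replicate 2 and DN replicate 2, and in 1 WT library, CCR6+ replicate 2. H3K4me3 was there in 5 KO and 5 WT libraries. At Haglr CFP1 was called in 0 KO and 3 WT libraries, with fold enrichments at its main site of 6.59 in WT CCR6+ replicate 2 and 6.00 in WT DN replicate 2. Those peaks had percentiles of 69.6 and 62.0 in their lists. Of the 25 sites, 7 had CFP1 in some library, a share that was not compared with that of all sites.

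Over 5741 genes tested for CFP1 presence between KO and WT, 431 (7.51%) had an unadjusted p under 0.05, all lower in KO, and 0 passed adjustment, with a smallest adjusted p of 0.202. One Hox gene, Hoxa13, could be tested, and it did not differ. Without the library labelled KO DN replicate 2, 267 of 5467 genes tested passed adjustment, all lower in KO, and 0 Hox genes were tested.

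Most genes known to act on or with Hox genes, and their neighbours, held H3K4me3. Of 9 TALE homeobox cofactors, 7.33 ± 1.97 were marked per KO and 7.67 ± 1.51 per WT library (SD, n = 6 each). Of 20 Polycomb and H3K27 demethylase genes, 17.7 ± 0.52 were marked in KO and 17.8 ± 0.75 in WT, and of 11 trithorax-side genes 9 in both. Of 17 genes that flank the clusters, 14.7 ± 0.82 were marked in KO and 14.8 ± 0.41 in WT. Of 8 genes upstream of Hox expression or of the ParaHox family, 0.67 ± 0.52 were marked in each. In these lists 0 genes passed a presence test or the covered-length fit between genotypes. Pbx2, a cofactor, was marked in 3 KO and 6 WT libraries.

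For CFP1, 5.33 ± 5.09 of the 20 Polycomb-side genes were marked per KO and 10.3 ± 1.75 per WT library, and 2.33 ± 2.73 in KO and 7.17 ± 1.47 in WT of the 11 trithorax-side genes (SD, n = 6 each). None passed adjustment, and 2 Polycomb-side genes and 1 trithorax-side gene had an unadjusted p under 0.05, beside the 7.51% of all genes tested. CFP1 was in fewer KO than WT libraries at 5234 of the 5741 genes tested, so nothing particular to these lists is read from the lower KO counts. Of the cofactors, 1.5 ± 1.97 had CFP1 in KO and 1.33 ± 0.52 in WT, of the flanking genes 4.67 ± 2.42 in KO and 7.17 ± 0.75 in WT, and of the upstream genes 0 in both. Suz12, a core subunit of the Polycomb repressive complex that writes H3K27me3, had CFP1 in 1 KO and 6 WT libraries. Kmt2a, the H3K4 methyltransferase that maintains Hox expression, had it in 0 KO and 5 WT libraries. Skap2, which flanks HoxA, had CFP1 in 0 KO and 4 WT libraries. These genes held H3K4me3 in all 12 libraries.

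Some markers of cell types were marked in different numbers of KO and WT libraries, though none passed a test between genotypes after adjustment, by presence or by covered length in limma. At an unadjusted p under 0.05, 2 of the 3 ILC3 markers tested and no other marker differed in presence, beside 1.86% of 1877 genes. In the covered-length fit, markers under an unadjusted 0.05 included Il1r1, at a log2 difference of −3.58 (SE 0.91), and Ahr, at −0.55 (SE 0.20). Col1a1, at 1.97 (SE 0.58), and Pecam1, at −1.96 (SE 0.77), were also among them, beside 3.74% of all genes fitted. Of 11 ILC3 markers, 4.83 ± 0.75 held H3K4me3 in KO and 6.83 ± 0.41 in WT libraries (SD, n = 6 each). Il23r, a receptor subunit of ILC3s, was marked in 1 KO and 6 WT libraries. Kit, Id2, Thy1 and Ahr were marked in all 12, while Il22, Gata3, Il1r1 and Rora were marked in none at their ends. Peaks away from the ends are missed in this count, and 10 of the 11 ILC3 markers were covered in at least 4 libraries. Ccr6 was marked in 0 KO and 4 WT libraries and Ncr1, the gene of NKp46, in 2 KO and 4 WT libraries. Of 5 T cell markers, 3.17 were marked on average in KO and 3.83 in WT, of 4 B cell markers 0.17 in KO and 0 in WT, and of 6 stromal and endothelial markers 1.67 in KO and 1.17 in WT. Kdr was marked in 3 KO and 0 WT libraries and Col1a1 in 6 KO and 3 WT libraries, while Pecam1 was marked in 1 KO and 4 WT libraries. Between subsets, 4.75 ± 0.50 of the 5 T cell markers were marked in DN libraries and 2.88 ± 1.13 in the others (SD, n = 4 and 8). By presence, 1 of the 3 tested had an unadjusted p under 0.05, beside 0.746% of all genes tested. In the covered-length fit 1, Cd5, was called higher in DN, beside 0.0565% of all genes fitted. The part of these marker differences in the Hox values was not tested.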

How the data were processed

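CUT&Tag libraries with antibodies to CFP1 and to H3K4me3 came from 3 ILC3 subsets and 2 genotypes, with 2 libraries per group. Groups and replicate numbers were taken from the sample titles. No label says that replicates came from separate animals, so p-values measure the spread between samples that may be technical. The submitters' processing notes name mm10, MACS2 2.2.7.1, Bowtie2 2.3.5.1, fastp 0.19.7, ChIPseeker 1.28.3 and Picard, without their settings. The authors deposited 1 peak list per library, so peaks were called per library. Each deposited list gives a position, a fold enrichment (a ratio), the −log10 of a p-value and of a q-value, and a score, which was not used. Fold enrichment was used only within its own list. The lists hold no read counts, so depth is unknown, and a missing peak means only that none was called.

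Peaks of the 19 autosomes and of X were compared with protein-coding genes of RefSeq (GRCm38.p6, the coordinates of mm10). No pair of lists was identical. Presence per gene was tested with Fisher's exact test on genes marked in 2 to 10 of 12 libraries, and covered length with limma 3.58.1 (R 4.3.3) on log2(bases + 100), with subset or genotype as a covariate. P-values were adjusted over all genes tested by Benjamini-Hochberg. Deviations of same-numbered KO and WT libraries correlated at 0.133 (CCR6+), 0.28 (NKp46+) and 0.327 (DN) across 12393 genes. The main tests were nevertheless unpaired, and only the replicate block setting paired the libraries by number. The tests were checked on simulated data. Other settings were a window of 500 b or of the whole gene, a fold enrichment or −log10 q of 5 or more, other pseudocounts and filters, centring, the replicate block and each library left out. SciPy 1.17.1, pandas 2.3.3, NumPy 2.4.6 and matplotlib 3.10.9 ran under Python 3.11.15.

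The Hox genes, the other gene lists and the tests were chosen with earlier results of these data known. Named were Hox genes with a peak in any library, those past a test, and genes of the other lists with a difference of at least 3 libraries between genotypes, of which examples are given. Results for some named items are not reported here, while group counts include every member. Markers of ILC3s, their subsets, T, B, myeloid, epithelial, stromal and endothelial cells were counted. For myeloid markers 1.17 of 4 were marked on average in KO and 0.83 in WT, for epithelial markers 1.33 of 5 in KO and 1 in WT, for CCR6+ markers 2.5 of 4 in KO and 3.67 in WT, and for NKp46+ markers 4.17 of 6 in KO and 5 in WT.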

Additional observations from a re-analysis of the deposited data

Results flagged for a closer look

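In CFP1, the library labelled KO DN replicate 2 stood apart from the other 5 KO libraries, with 3 Hox genes marked, 693 b of peaks in HoxB, 504 b in HoxC and 2181 b over the 4 clusters. WT CCR6+ replicate 2 stood apart from the other 5 WT libraries, with 1 Hox gene marked, 649 b in HoxA and 1783 b over the clusters. Of 32 groups checked, these 7 values were outlying by a rule with a nominal rate of about 1 in 20 groups. That rate cannot be applied here, since a single library above 0 among values of 0 is always flagged. The 7 come from 2 libraries and overlap, since the cluster total holds the single clusters, and most other CFP1 values in these groups were 0, so they are not 7 separate departures.

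H3K4me3 cover of HoxD moved in opposite directions between subsets. The mean difference, KO minus WT, was −686.5 b in CCR6+, 1547 b in NKp46+ and −527.5 b in DN cells, with both same-numbered pairs going one way in each subset. Of the 36 pairs of subsets checked across the measures, only HoxD cover in CCR6+ against NKp46+ and in NKp46+ against DN moved this way. With 2 libraries per group, signs can fall so without a difference between subsets, and that difference was not tested. In replicate 1 the KO list covered less than the WT list in CCR6+ (9.77 against 15.9 Mb) and DN (10.7 against 14.2 Mb). In NKp46+ it covered more (15.6 against 10.9 Mb). In replicate 2 the KO list covered more in every subset, while HoxD cover was higher in KO in NKp46+ cells only. Whether list cover accounts for the HoxD values was not tested.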

How the results depend on the processing

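The H3K4me3 counts of Hox genes kept their direction under the settings tried. The mean excess of Hox genes marked per KO library over WT was 2.83, with 1.5 to 3.5 under other windows or thresholds and 1.93 to 3.93 with a library left out. The cover of the 4 clusters, KO minus WT, was 1.34 kb, with 0.443 kb at a −log10 q of 5 or more, 1.56 kb at a fold enrichment of 5 or more and 0.0539 to 2.78 kb with a library left out. For CFP1 the mean excess of Hox genes per KO library was 0.333, and −0.167 to 0.5 with a library left out, below 0 without the library labelled KO DN replicate 2. No Hox gene was called for presence under any setting. For CFP1 presence, 0 genes were called, and 0 to 267 with a library left out, the highest being without the library labelled KO DN replicate 2.

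For covered length between KO and WT, 9 genes were called. The count was 3 at a −log10 q of 5 or more, 4 with a pseudocount of 10 b, 41 when centred on genes covered in all libraries, 0 for genes covered in 8 or more libraries and 2 to 13 with a library left out. Under the replicate block, which pairs the libraries by number, it was 17. The block changed no call of a Hox gene, and between subsets it gave 9 genes for CCR6+, 6 for NKp46+ and 6 for DN.

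Hoxa9, the single Hox gene called between subsets, was not fitted or not called under several settings. In the CCR6+ comparison the Hox count was 0, and that of all genes 4, at a fold enrichment of 5 or more, 0 and 3 at a −log10 q of 5 or more, 0 and 2 with end windows, and 0 and 0 for genes covered in 8 or more libraries. With a library left out the Hox count was 0 to 1 and that of all genes 0 to 11. In the NKp46+ comparison the counts were 0 and 3, 0 and 3, 0 and 2 and 0 and 0 under the same settings, 9 for all genes with a pseudocount of 10 b, and 0 and 1 with 500 b. With a library left out they were 0 and 0 to 3. In the DN comparison they were 0 and 3, 0 and 3, 0 and 4 and 0 and 0, and 0 and 0 with a pseudocount of 500 b. With a library left out they were 0 and 0 to 3. Filters and left-out CCR6+ libraries removed Hoxa9 from the genes fitted, and for the other settings the cause was not tested. The site inside Hoxa9 had exact p values of 0.00303 to 0.00606 with a library left out. The site inside Hoxb7 had an exact p of 0.0606, with 108 of 8306 sites (1.3%) under 0.05, and 0.0152 to 0.0606 with a library left out. At a fold enrichment of 5 or more it was in 2 KO and 0 WT libraries, with an exact p of 0.455. Unknown depth limits all absences.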
